A study of Mus musculus with 3 samples.

Results

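The 3 Gadd45 genes (Gadd45a, Gadd45b and Gadd45g) and 7 genes of MAP kinase phosphatases (Dusp1, Dusp2, Dusp4, Dusp5, Dusp6, Dusp10 and Dusp16) were read on 3 arrays of irradiated mouse blood stem cells. They were taken from a named list and found by the Entrez gene identifier of their probe sets, 10 of 23185 named genes, with all 10 present. The cells were long-term haematopoietic stem cells of mouse bone marrow, sorted as Lin-, ckit+, Sca+, Flk2-, CD48- and CD150+. All 3 samples were kept overnight in StemSpan SFEM, a serum-free medium, before exposure, so every group, the control included, is of cells outside the animal. One sample was unirradiated (0 Gy), one received 0.02 Gy of γ-radiation (low dose) and one 2.5 Gy (high dose), and RNA was taken 2 hours later. The labels give no mouse strain, age or number of animals pooled.

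Gadd45 proteins are small stress proteins without enzyme activity that bind other proteins, among them the kinase MAP3K4, which feeds the p38 and JNK arms of MAP kinase signalling, and the cell cycle proteins CDK1, PCNA and p21. MAP kinase phosphatases act at the other end: they remove phosphate from both the threonine and the tyrosine of an activated MAP kinase and so switch it off. Members of both families are known as early response genes, and p38 signalling is known in blood stem cells for its link to stress and loss of quiescence.

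Each value is a log2 level of 1 probe set on 1 array, so 1 unit is a 2-fold difference. With 1 array per dose no difference below has a replicate check, no test was possible and no p-value is given. A gene counts as past the level minimum where its mean over the 3 arrays is at least 4.55, the median of named genes; 11593 genes were, and 7 of the 10 members. Gadd45g, Dusp6 and Dusp10 lay below it. Whether a probe set stood above background was not measured, so levels of these 3 genes may hold little signal. Levels are compared between arrays for 1 gene, never between genes, since probe sets differ in brightness. In these bulk samples a change in the number of cells of a type and a change in RNA per cell cannot be told apart.

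The sequence just upstream of the start site is shown first for 5 genes: Gadd45b, Dusp16 and Dusp1, which had the largest differences between the high dose and the control among members past the level minimum, and Gadd45a and Dusp5, which were closer to the control in the deposited values. After quantile normalization Dusp5 (0.293) and Dusp1 (0.287) changed places in that order. Each line gives the 150 bases before the RefSeq start site (build GRCm38.p6), 5′ to 3′ along the gene, with the motif matches described next in capitals. For Dusp16 this start site is that of a transcript that begins inside the gene's annotated span. Gadd45b lies on the plus strand (chr10:80929941-80930090), Dusp16 on the minus strand (chr6:134792629-134792778), Dusp1 on the minus strand (chr17:26508473-26508622), Gadd45a on the minus strand (chr6:67037408-67037557) and Dusp5 on the plus strand (chr19:53528995-53529144).
Gadd45b: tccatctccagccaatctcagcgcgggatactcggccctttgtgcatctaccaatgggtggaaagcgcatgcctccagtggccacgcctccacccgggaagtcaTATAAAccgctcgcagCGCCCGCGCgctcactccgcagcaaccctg
Dusp16: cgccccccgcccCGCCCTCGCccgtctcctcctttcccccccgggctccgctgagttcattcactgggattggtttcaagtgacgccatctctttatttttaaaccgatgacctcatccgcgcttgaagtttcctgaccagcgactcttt
Dusp1: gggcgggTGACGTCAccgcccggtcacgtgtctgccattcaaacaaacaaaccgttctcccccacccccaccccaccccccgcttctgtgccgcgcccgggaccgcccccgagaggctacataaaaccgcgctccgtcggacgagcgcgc
Gadd45a: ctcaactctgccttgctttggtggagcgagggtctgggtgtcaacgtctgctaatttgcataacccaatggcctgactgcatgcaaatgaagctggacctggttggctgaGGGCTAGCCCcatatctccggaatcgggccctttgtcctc
Dusp5: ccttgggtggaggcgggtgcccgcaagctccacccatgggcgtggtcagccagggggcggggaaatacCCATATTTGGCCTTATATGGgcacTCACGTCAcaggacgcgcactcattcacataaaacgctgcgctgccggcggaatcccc

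The 7 motifs named here were searched on both strands in the 250 bases before the start site of 9 members that RefSeq promoters were given for (Dusp4 had no entry) and of all 32851 promoters. Gadd45b had a TATA box (TATAAA) from base -46 to -41, counted back from the start site, as Gadd45g did from -27 to -22; 12.4% of all promoters had one. An Egr motif (GCGNGGGCG) was found in Gadd45b (-30 to -22), Dusp16 (-138 to -130) and Dusp2 (-98 to -90), against 4.7% of all promoters. Dusp1 had the cyclic AMP response element TGACGTCA from -143 to -136. The form searched, TGACGTNA, was also in Dusp5 (-58 to -51) and in 2.52% of all promoters.

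Dusp5 held the densest group. A pair of CArG boxes, the binding motif of serum response factor, lay from -82 to -73 and from -72 to -63, and 1.47% of promoters had any. The NF-κB consensus was found in 0 of the 9 windows and in 3.9% of all promoters. Gadd45a had 1 p53 half-site, a single decamer and not a full p53 site, from -40 to -31 (7.13% of promoters). The AP-1 motif TGANTCA was in none of the 9 windows (6.75% of promoters). All 9 windows were richer in CpG (11 to 28 sites) than the median promoter (6). Matches describe these letters only; no binding was measured.

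**Figure D1:**
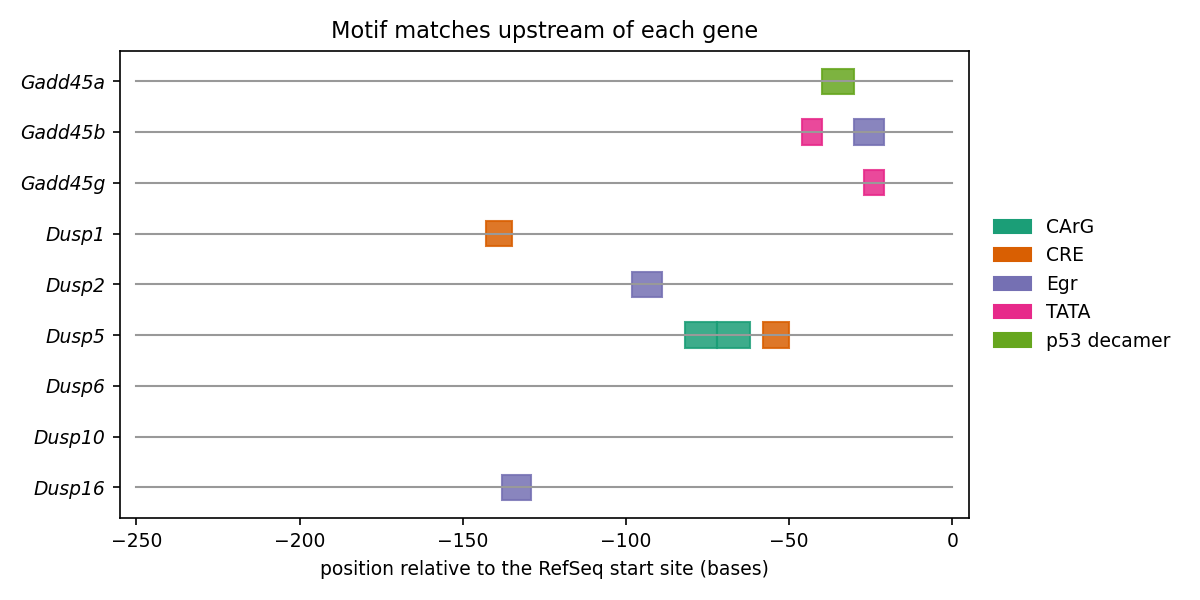
Motif matches in the 250 bases upstream of the RefSeq start site of 9 genes. The x axis is the position in bases before the start site, each grey line is a promoter, and each coloured block is a match on either strand; Dusp5 carries 3 matches between -82 and -51, while Dusp6 and Dusp10 carry none.

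Of the Gadd45 genes only Gadd45b passed 2-fold at the high dose. Gadd45b, which binds MAP3K4 and the JNK kinase MKK7 and is a known NF-κB target (Entrez gene 17873), had log2 levels of 4.82 (unirradiated), 4.71 (low dose) and 5.85 (high dose). The high-dose array stood alone, and the other arrays lay close together. The log2 difference was 1.03 against unirradiated (2.04-fold) and 1.14 against the low dose (2.20-fold). Of the 11593 genes past the level minimum, 123 were at least as much higher as Gadd45b against unirradiated, itself included, and 117 against the low dose.

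Gadd45a, the family member known as a p53 target, gave values of 6.51, 6.63 and 6.40 (log2 level, unirradiated, low and high dose). The high-dose array was the lowest of the 3, by −0.12 against unirradiated and −0.23 against the low dose, and the first was −0.24 after quantile normalization and −0.23 after loess. In the deposited values these differences lay within the range that many genes covered: 31.1% of genes were as low or lower in the first and 24.2% in the second. Gadd45g, best known for growth arrest and development, was at 3.69, 3.89 and 3.34, below the level minimum on all arrays, with the high dose again lowest (−0.35 against unirradiated). So of 3 related genes 1 was at least 2-fold higher at the high dose (background 1.15% of genes past the level minimum). Gadd45a and Gadd45g had their lowest level there, but the share of all genes lowest on that array was not counted. Against unirradiated, Gadd45a lay in the interquartile range of genes past the level minimum in the deposited values, and detection of Gadd45g is unknown.

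**Figure D2:**
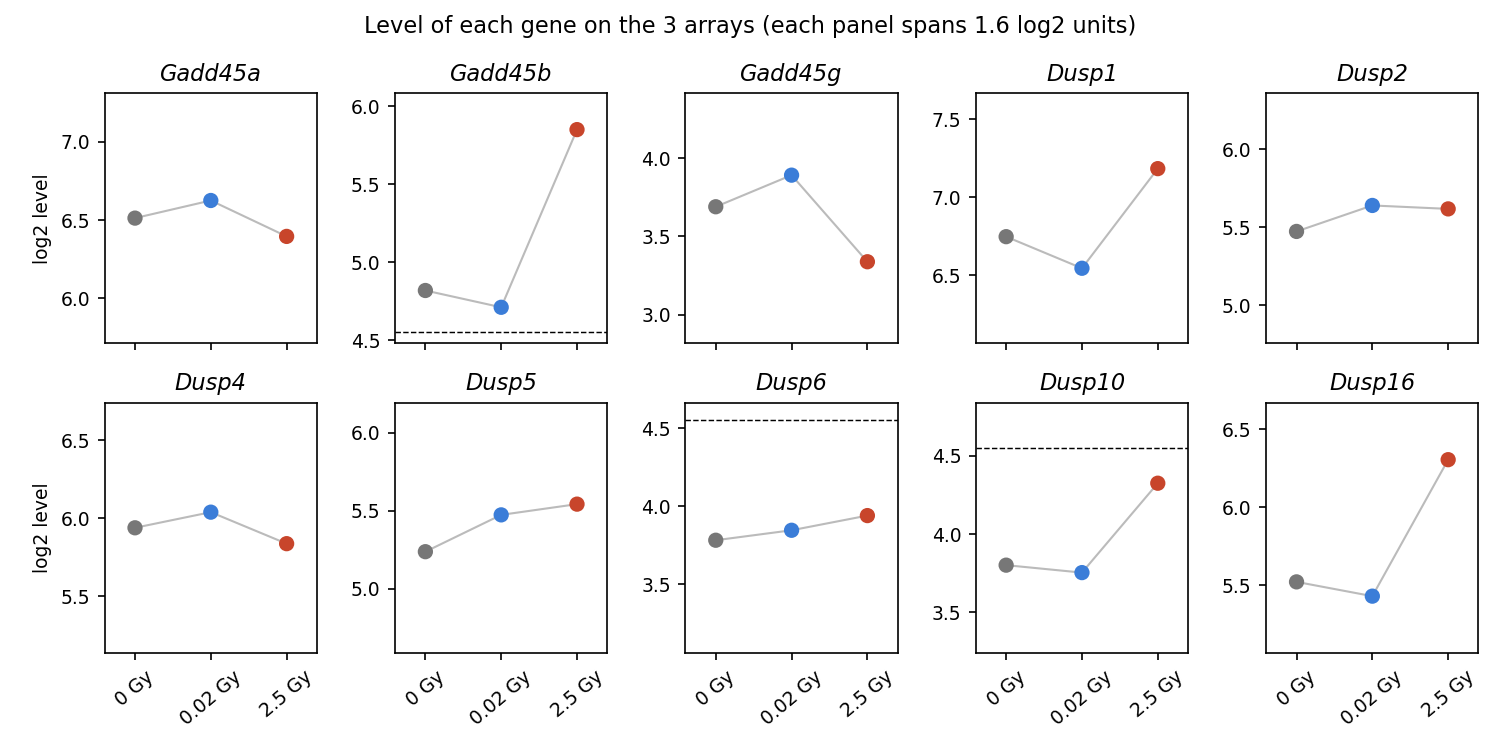
Level of each of the 10 genes on the 3 arrays. The y axis is the deposited log2 level, with every panel spanning 1.6 log2 units, points are single arrays (0, 0.02 and 2.5 Gy) joined by a line, and the dashed line is the level minimum of 4.55 where it falls in the panel; Gadd45b and Dusp16 are highest at 2.5 Gy with both other arrays close together.

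Dusp16 and Dusp10, which encode phosphatases of JNK and p38, had their highest level at the high dose. Dusp16 (MKP-7; Entrez gene 70686), which shuttles between nucleus and cytoplasm, was at 5.52, 5.43 and 6.31. The unirradiated and low-dose arrays differed by −0.09, and the high dose was above them by 0.78 (1.72-fold) and 0.87 (1.83-fold). As many as 293 genes were at least as much higher against unirradiated (2.53% of those past the minimum), and 227 against the low dose (1.96%). Dusp10 (MKP-5) was at 3.80, 3.75 and 4.33, below the level minimum on each array. Its high-dose array was above the others by 0.52 and 0.57, the same order of arrays as for Dusp16 and Gadd45b. The share of all genes with that order was not counted. After each of 3 other scalings Dusp10 was higher, not lower, at the low dose than unirradiated (0.020 to 0.040, against −0.048 in the deposited values).

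The nuclear, inducible phosphatases were mixed. Dusp1 (MKP-1), an immediate-early gene whose product acts on p38, JNK and ERK, was at 6.75, 6.55 and 7.18. The high dose was highest and the low dose lowest, so the gap between the doses (0.64, 1.56-fold) was wider than that to the unirradiated array (0.44, 1.35-fold). After quantile normalization the Dusp1 differences from the control were 0.29 at the high dose and −0.36 at the low dose. At least as high as Dusp1 were 4.54% of genes in high dose minus low dose and 11.9% in high dose minus unirradiated.

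Dusp5, an ERK phosphatase of the nucleus, was at 5.24, 5.47 and 5.54. Both irradiated arrays were above the unirradiated one, by 0.24 and 0.30, and 28.2% and 20.3% of genes were as high or higher. Dusp2 (PAC-1), first known from blood cells, was at 5.47, 5.64 and 5.62. The irradiated arrays lay together and above the control by 0.17 and 0.14. Dusp4 (MKP-2) was at 5.94, 6.04 and 5.84, with the high dose 0.10 below the control. Dusp2 and Dusp4 were in the interquartile range of genes past the level minimum against unirradiated at both doses.

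Dusp6 (MKP-3), the cytoplasmic phosphatase of ERK, was below the level minimum on all arrays at 3.78, 3.85 and 3.94. Its largest difference, 0.16 between the high dose and the control, lay in the interquartile range of all genes past the level minimum. Values this low cannot show whether the gene was expressed.

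Read by dose, the low-dose array lay near the control for these genes, as it did for most genes. Past the level minimum, 0 of 7 members were at least 2-fold higher or lower at 0.02 Gy. Of all genes past it, 1.33% were higher and 1.14% lower by as much. No member was at least 1.5-fold higher (background 7.5%) or lower (4.72%). With backgrounds this small, counts of 0 among 7 genes are not particular to the members. Member differences ran from −0.20 (Dusp1; −0.36 after quantile normalization and −0.38 after loess) to 0.24 (Dusp5), with 4 of 7 above 0 against 54.2% of all genes. Their median was 0.10, beside 0.04 for all genes, and turned to −0.05 after quantile normalization and −0.04 after loess. All 10 genes but Dusp1 lay in the interquartile range of genes past the level minimum (−0.190 to 0.274). For all 23185 named genes this range was −0.228 to 0.198, with Dusp1 inside it and Dusp5 and Gadd45g (0.202) above it.

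At 2.5 Gy against unirradiated, 1 of 7 members was at least 2-fold higher (Gadd45b; background 1.15%) and 0 lower (background 0.578%). At a smaller size of 1.5-fold there were 2 (Gadd45b and Dusp16; background 6.07%) and again 0 lower (background 3.44%). The median of the 7 was 0.30, beside 0.02 for all genes past the level minimum, with 5 of 7 above 0 (background 53.4%). The median was 0.14 for the 5 members past a level minimum at the 75th percentile. Such small counts carry no test and describe these arrays. Gadd45b alone lay outside the central 95% of genes past the level minimum (−0.65 to 0.79), and Dusp16 (0.78) lay at its edge. For all 23185 named genes the upper limit was 0.72, and Dusp16 was above it.

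The direct comparison of the doses uses no unirradiated array. In it 1 of 7 members was at least 2-fold higher at 2.5 Gy (Gadd45b; background 1.44%) and 0 lower (background 1.06%). At 1.5-fold, 3 of 7 were higher (Gadd45b, Dusp16 and Dusp1; background 5.74%) and 0 lower (background 5.67%). The median was only 0.07, beside 0.00 for all genes, since Gadd45a (−0.23), Dusp4 (−0.20) and Dusp2 (−0.02) were lower at the high dose, and 4 of 7 were above 0 (background 49.4%). Both comparisons of the high dose share that array, so they are not independent of each other.

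**Figure D3:**
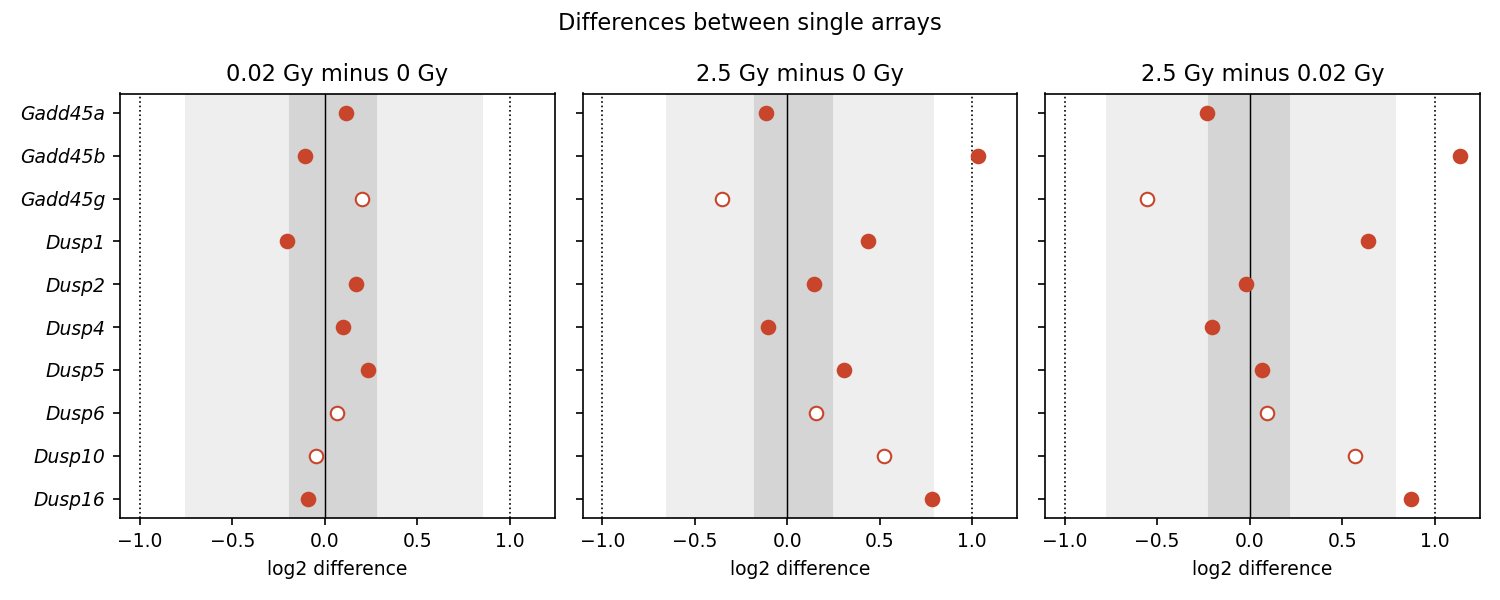
Log2 differences of the 10 genes in the 3 comparisons. The x axis is the log2 difference between 2 single arrays, filled points are genes past the level minimum and open points those below it, dark and light grey bands hold the interquartile range and the central 95% of 11593 genes, and dotted lines mark 2-fold; at 0.02 Gy the points cluster around 0, and at 2.5 Gy Gadd45b (1.03 and 1.14) passes 2-fold in both comparisons.

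Genes with a pattern over the 3 arrays most like that of Gadd45b were sought by the distance between values centred on each gene's mean. The 9715 candidates were protein-coding genes past the level minimum, with predicted genes and some gene families left out. The nearest was Mdfi (distance 0.040; 5.08, 4.91 and 6.07), followed by Sac3d1 (0.050; 5.49, 5.45 and 6.56) and Icam1 (0.10; 5.87, 5.75 and 6.77), which encodes an adhesion molecule. With 3 arrays many genes can share a pattern, and this likeness describes these arrays only.

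None of the 3 other classical MAP kinase phosphatases was higher at the high dose than in the control. Dusp9, an ERK phosphatase, was at 4.84, 4.61 and 4.27, and Dusp8, which acts on JNK and p38, at 4.83, 4.47 and 4.60. Dusp7 lay below the level minimum at 3.74, 3.72 and 3.26. None of the 2 past the level minimum was at least 2-fold higher or lower in any comparison (background 0.578% to 1.44%).

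Of 18 atypical dual-specificity and slingshot phosphatases, 14 were past the level minimum. At the high dose against unirradiated 0 were at least 2-fold higher (background 1.15%) and 1 was lower (background 0.578%). This was Dusp19, known to act in the JNK pathway, at 5.47, 5.13 and 4.39 (difference −1.08). The median of the 14 was 0.03. At 1.5-fold 2 were higher (background 6.07%) and 1, Dusp19, was lower (background 3.44%). The 2 higher were Dusp3 (0.80, at 4.78, 4.91 and 5.59), which acts on ERK and JNK, and Ssh3 (0.76), a cofilin phosphatase. Both were chosen after their values were seen. None of the 14 was past 2-fold at the low dose (background 1.33% higher and 1.14% lower).

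The kinases of these pathways that were past the level minimum stayed under 2-fold. There were 25 MAP kinase, MAP2 kinase and MAP3 kinase genes past the level minimum (37 measured). Of these 0 were at least 2-fold higher or lower in any of the 3 comparisons (background 0.578% to 1.44%). Their medians against unirradiated were 0.13 (low dose) and 0.12 (high dose). Their low-dose differences ran from −0.51 to 0.79, with 2 of the 25 genes at least 1.5-fold higher (background 7.5%). These were Map2k1, which encodes the ERK kinase MEK1 (0.79) and was chosen after its value was seen, and Map3k11 (0.60). Among MAP kinases Mapk6 (ERK3) differed from the control by 0.49 (low dose) and 0.47 (high dose), and Mapk12, a p38 gene, by −0.15 and 0.36. Mapk9, which encodes JNK2 and was chosen after its values were seen, was at 4.44, 4.99 and 4.32. Mapk14, the main p38 gene, was at 5.21, 5.24 and 5.12, and Mapk8, which encodes JNK1, at 4.82, 5.01 and 5.03. Map3k4, the kinase that Gadd45 proteins bind, was at 4.77, 4.79 and 4.56.

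Upstream, Araf, a RAF kinase of the ERK arm, was at −0.16 (low dose) and 0.67 (high dose) against unirradiated. Map3k11, of the JNK arm, was at 0.60 and 0.41, so its larger difference was at the low dose. Map2k5, the kinase of ERK5, lay below the level minimum (3.76, 4.29 and 4.82). Its high-dose value was 1.06 above the control, and detection is unknown there. Among 6 other phosphatases of MAP kinases past the minimum, the 2 largest differences between the high dose and the control were those of Ppp2ca, a catalytic subunit of PP2A (0.49), and Ptpn7, a tyrosine phosphatase of blood cells (0.29). Both were further above the control at the low dose, by 0.69 and 0.51.

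Genes downstream of MAP kinases included larger differences. Of 13 effector genes past the level minimum 0 were at least 2-fold higher or lower against unirradiated at either dose (background 0.578% to 1.33%). In high dose minus low dose 1 was higher (background 1.44%): Jund, an AP-1 subunit (6.43, 6.11 and 7.18, difference 1.07). Jun, the JNK substrate, had a mean below the minimum. Its levels were 4.05 (unirradiated), 3.39 (low dose) and 5.75 (high dose), the order of arrays seen for Gadd45b and Dusp16. Jund had the same order. Genes of other lists had it too, among them Araf and Nfkbie, so it is not particular to these genes. The share of all genes with this order was not counted.

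Among genes of ERK feedback and output, 5 of 12 measured were past the level minimum. Of these 1 was at least 2-fold higher at the high dose than unirradiated (background 1.15%). This was Ier3, an early response gene (7.26, 7.55 and 8.28; difference 1.03), which was under 2-fold after quantile normalization (0.81) and loess (0.85). Spred2, an inhibitor of RAS signalling, was below the minimum on average but at 3.61, 3.26 and 4.90. Of the list's remaining genes, Egr1, an ERK-driven early gene, was at 4.34, 4.19 and 4.43.

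**Figure D4:**
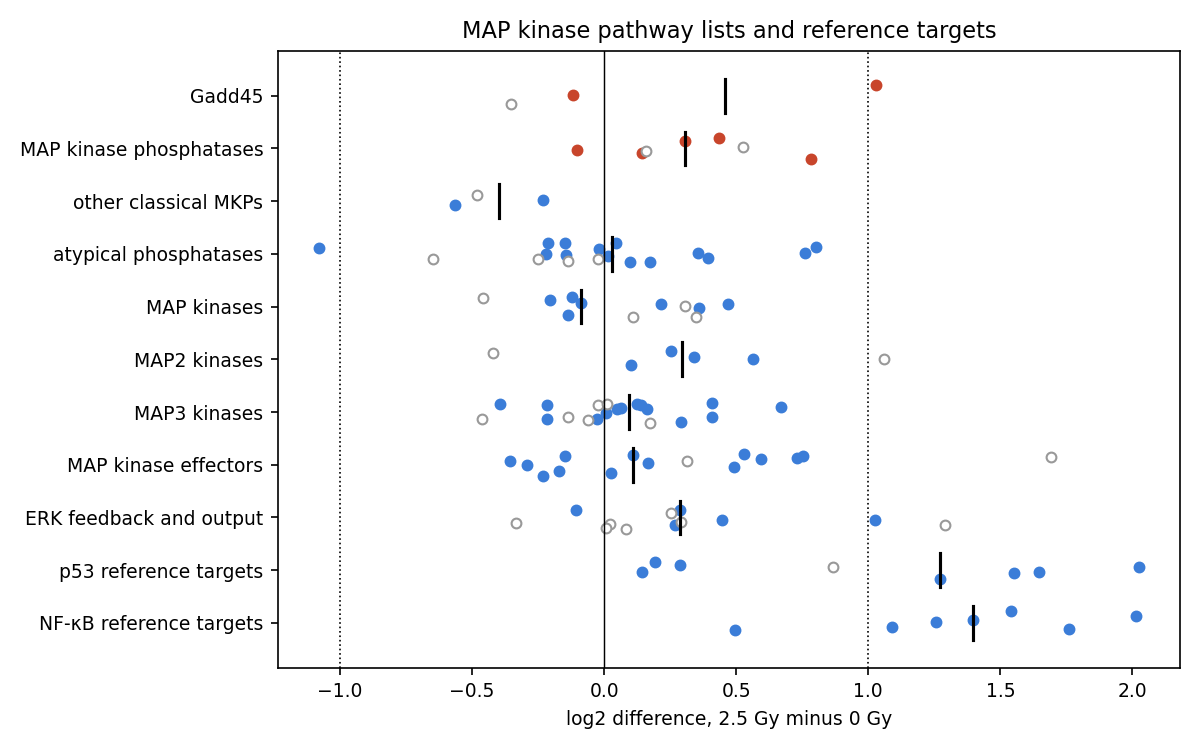
Log2 difference of 2.5 Gy minus 0 Gy for genes of the MAP kinase pathway and for reference targets. Each point is a gene, with filled points past the level minimum (red for the 10 genes described here, blue for other lists) and open points below it, the black bars are medians of the filled points, and dotted lines mark 2-fold; the MAP kinase lists have medians from −0.40 to 0.46, and the p53 and NF-κB reference targets 1.27 and 1.39.

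Among proteins that Gadd45 binds or works with, 8 of 10 listed genes were measured and 7 passed the level minimum. Cdkn1a, which encodes the cell cycle inhibitor p21, was the 1 gene at least 2-fold higher at the high dose than unirradiated (5.65, 6.12 and 7.30). The background was 1.15%. Pcna, the replication clamp, was at 8.19, 8.76 and 8.11, and Ccnb2, a cyclin of mitosis, at 6.81, 6.74 and 6.40. Tdg, a DNA glycosylase linked to Gadd45a in DNA demethylation, was far below the minimum (2.27, 3.55 and 1.81).

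The p53 and NF-κB reference genes set a scale for these values. Against unirradiated, 4 of 7 p53 targets past the level minimum were at least 2-fold higher at the high dose (background 1.15%). Among them were Ccng1 (2.02), Cdkn1a (1.65) and Mdm2 (1.27). So were 6 of 7 NF-κB targets, among them Nfkbia (1.39) and Tnfaip3 (1.09). These lists were drawn up with results of these arrays known and are no independent evidence of direction. Gadd45b (1.03) was below Tnfaip3, the lowest of the 6 NF-κB targets past 2-fold, and above the remaining one, Relb (0.50). Gadd45a (−0.12) was below all 7 p53 targets, of which the lowest, Zmat3, was at 0.14.

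Stem cell markers and markers of other blood cells were read beside these results. Passing the level minimum cannot establish the cells' identity, since 7 of 8 megakaryocyte markers passed it too. All 9 of the stem cell markers measured, of 10 listed, were past the level minimum, with Kit at 8.58, 8.78 and 8.50 and Slamf1, which encodes CD150, at 5.24, 4.75 and 4.84. Their summed log2 level ran from 54.8 to 55.6, a sum in which differences of opposite sign offset each other. Hlf was at 7.21, 7.62 and 7.88. Meis1, named after its values were seen, was at 7.05, 7.58 and 6.79. Against the control, 5 of the 9 were higher and 3 lower at the low dose. At the high dose 3 were higher and 6 lower. Of 9 measured neutrophil and monocyte markers 6 were past the level minimum, and the summed log2 levels were 44.1 (unirradiated), 47.6 (low dose) and 48.3 (high dose). S100a9 was at 6.82, 7.94 and 8.38 and S100a8 at 5.57, 6.87 and 6.81, and Ly6c2 was 1.04 higher at the high dose than unirradiated. Of the 9 markers 6 were above the control and 3 below it at each dose, with medians of 0.37 and 0.18, and S100a8, S100a9 and Ly6c2 had the 3 largest high-dose differences. Fcgr3 (−0.36) and Camp (−0.29), named after their values were seen, had the lowest at the high dose. S100a8 and S100a9 were higher than the control on the low-dose array too. The part of neutrophils and monocytes in the values of the 10 members was not tested.

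Markers of other lineages spanned smaller ranges. Summed log2 levels of 9 lymphoid markers, 2 of them past the minimum, were 36.6, 34.4 and 35.8. Those of 5 erythroid markers, 3 past it, were 24.1, 22.8 and 23.7, and those of 8 megakaryocyte markers, 7 past it, were 47.4, 48.9 and 46.8. No marker has a value of 0, since these are log2 intensities with a floor that is not known here.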

How the data were processed

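Gene expression was measured on 3 arrays, 1 per dose, with biotin-labelled target made by an Affymetrix whole-transcript kit, per the labels' protocols. The values are the authors' deposited log2 values for 25206 probe sets, 1.55 to 12.4, with array medians of 4.60, 4.54 and 4.55 (0, 0.02 and 2.5 Gy). Partek is named without a role, per the submitters' processing notes; their background correction and normalization are not stated in what was used. The scale was inferred from the values.

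Probe sets were named through the platform annotation: 23185 had 1 symbol, 0 had several and 2021 had none and were left out. Of 180 listed symbols 164 were measured. For each gene the arrays were subtracted from one another (Python 3.11.15, pandas 2.3.3) and counted at 2-fold among genes past the level minimum. The counting code was checked on simulated data, with added changes above the 2-fold cut and less noise than the real arrays. That check cannot show how often single arrays differ 2-fold without a dose effect. With 1 array per group there was no test. The number of arrays limits the precision.

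All 10 members were named. From other lists, genes at least 2-fold different in any comparison were named, or else the 2 with the largest high-dose difference; others were given for their role in the pathway. Reference and marker genes are given in part, with counts or sums for the rest. The members and lists were chosen with earlier results of these data known. The alternatives were quantile normalization, median centring, loess (span 0.3, statsmodels 0.14.6), other level minimums and other fold sizes. Promoter sequences are from RefSeq, build GRCm38.p6.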

Additional observations from a re-analysis of the deposited data

How the results depend on the processing

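No paired analysis was possible because the doses are single arrays. The count of members at least 2-fold higher (1 in both comparisons with the high dose, 0 at the low dose) was unchanged after quantile normalization, median centring and loess, without a level minimum and with the minimum on both arrays. With the minimum at the 75th percentile it was 0 in both, since Gadd45b then fell out. At 1.5-fold it was 2 against unirradiated and 3 against the low dose, and at 3-fold 0 in both, by construction. No member passed the fold size downwards under these 8 settings. Of 90 member differences under the 3 scalings, 5 changed sign, 2 for Gadd45a and 3 for Dusp10 at the low dose. The largest move was 0.18. Differences of genes at the level of a member had a robust SD of 0.27 to 0.34, a spread across genes and not between repeated arrays. At the 75th percentile minimum, where Gadd45b and Dusp5 dropped out, the high-dose median of members was 0.14 against unirradiated and −0.02 against the low dose. Without a minimum the first was 0.23.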
